A study of Homo sapiens with 12 samples.

Results

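Redox defence genes were examined in SUDHL6 and SUDHL16, a pair of established human lines of diffuse large B-cell lymphoma (DLBCL) that respond to venetoclax (ABT-199), a drug that blocks BCL2, and in the venetoclax-resistant line derived from each. The set was fixed by gene symbol: NQO1, NQO2, TXN, TXNRD1, TXNIP, GPX4, GCLM, GCLC, HMOX1 and SOD2. Of these 10 genes, 9 were matched among the 60675 gene identifiers of the count tables, and SOD2, the mitochondrial superoxide dismutase, was not analysed here. The rule for the genes used their symbols and no threshold on measured values, but the set was chosen with earlier results of these data known. The shares of the set given below beside those of all genes therefore only describe it. The groups were SUDHL6-parental, SUDHL6-resistant, SUDHL16-parental and SUDHL16-resistant, with 3 libraries each and 12 in all. The parental groups received no selection, and each resistant group is a single line obtained by long exposure to rising venetoclax concentrations, kept under the drug and able to grow well above the parental IC50. A difference between resistant and parental cells therefore compares a pair of lines, and lasting resistance and exposure to venetoclax cannot be told apart. The study's methods say that cells were moved to fresh medium for experiments, and whether venetoclax was present when RNA was taken is not given in the sources used here. The labels do not say whether the libraries of a group came from separate cultures, so p-values measure only the spread between these libraries, which may be technical.

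Cells hold peroxides and reactive quinones in check with a pair of thiol systems, which pass electrons from NADPH to thioredoxin or to glutathione, and many of the enzymes involved are induced by the transcription factor NRF2 (NFE2L2), which KEAP1 holds at a low level in unstressed cells. TXNIP acts against the thioredoxin arm: its protein binds reduced thioredoxin and also limits glucose uptake. In many cell types TXNIP transcription is known to follow glucose metabolites through the factor MondoA (MLXIP) and its partner MLX.

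The libraries of the lines differed in kind. For SUDHL6 the library kit was NEBNext Ultra II and the sequencer a HiSeq, and for SUDHL16 they were a stranded total RNA kit of Illumina that removes ribosomal RNA (RiboZero Plus) and a NovaSeq, so kit, platform and line cannot be told apart and no level was tested between lines. Total counts were 33992784 to 40885665 in SUDHL6 and 4131927 to 22068221 in SUDHL16. Library CE-26 of SUDHL16-parental had the lowest total and stood apart. Protein-coding genes took 55.4% of its counts, and 84.3% to 90.2% of those of each other SUDHL16 library. The biological coefficient of variation was 0.0516 in SUDHL6, 0.468 in SUDHL16 and 0.339 in SUDHL16 without CE-26. The SUDHL16 calls of the set are therefore given with and without that library, and those of the other lists mainly with it. The 9 B-cell markers examined summed to at least 3077 CPM in every library, where CPM are counts scaled to library size. Markers of T cells, myeloid cells, epithelium and fibroblasts summed to at most 2.26 CPM in each SUDHL6 library. Erythroid markers summed to 0.323 to 0.547 CPM in the SUDHL6 libraries. In SUDHL16, the T-cell markers summed to 1.60 to 18.9 CPM in parental and 11.7 to 14.02 CPM in resistant libraries. In the same order, the myeloid markers summed to 0 to 10.7 and 0.329 to 2.08 CPM, and the epithelial markers to 0 to 14.1 and 0 to 0.737 CPM. The fibroblast markers summed to 19.8 to 49.2 and 0.134 to 0.518 CPM, and the erythroid markers to 151 to 1372 and 5.51 to 136 CPM. The part of all these markers in the results below was not tested.

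TXNIP was the only gene of the set called higher in the resistant line of both pairs, with a change of 1.52-fold in SUDHL6 and 25.5-fold in SUDHL16. NQO2, a quinone reductase that uses dihydronicotinamide riboside, was called higher in SUDHL6 alone. Both SUDHL6 calls were lost in a single fit of all 12 libraries, with log2 fold changes of 0.60 for TXNIP (adjusted p 0.802) and 0.79 for NQO2 (adjusted p 0.0938). Calls required a change of 1.5-fold or more and an adjusted p under 0.05 (edgeR quasi-likelihood test, Benjamini-Hochberg over all genes tested). In SUDHL6, 2 of 9 genes were called, both higher, where 8.96% of all 16662 genes tested were called, 4.31% higher and 4.65% lower. In SUDHL16, 1 of 9 was called, where 5.3% of all 15708 genes were called, 3.2% higher and 2.1% lower. Without CE-26, 5 of 9 were called in SUDHL16, 2 higher and 3 lower, where 10.0% of 16280 genes were called, 6.73% higher and 3.32% lower. The further genes were HMOX1, higher, and NQO1, TXNRD1 and GCLC, lower. Leaving out CE-27 called HMOX1 beside TXNIP, 2 genes in all, and leaving out any of the other 4 SUDHL16 libraries left TXNIP as the only call. Of all genes, 460 of 17023 were called without CE-27, and 279 to 407 without each of those other 4.

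**Figure D1:**
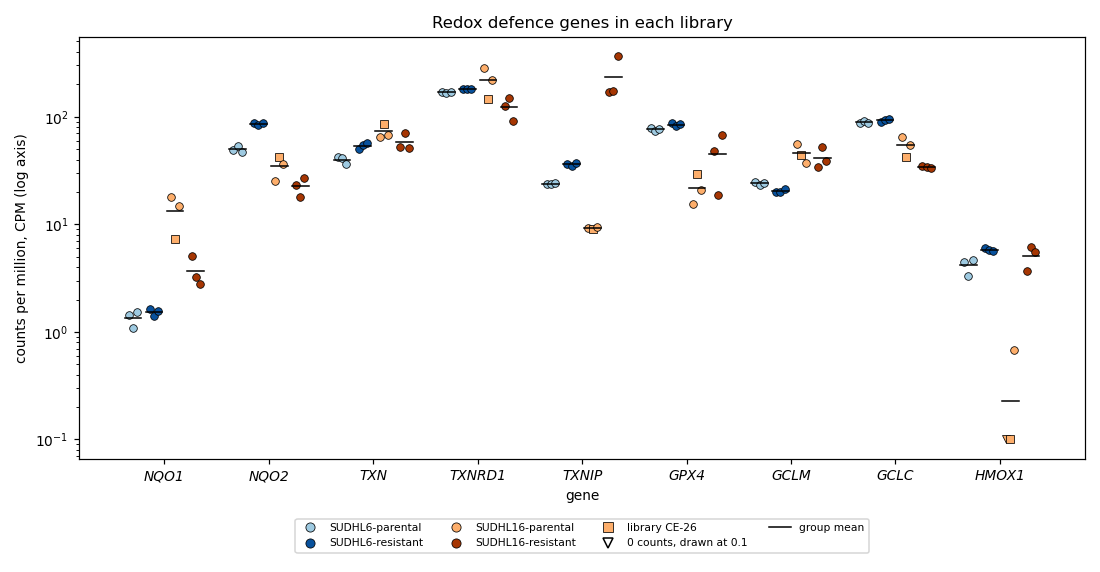
Level of each redox defence gene in each of the 12 libraries, in CPM on a log axis, by group, with the group mean as a bar and library CE-26 as a square. The SUDHL16 resistant libraries sit at 170 CPM or more for TXNIP, above every other library, and the SUDHL16 parental libraries are at or near 0 for HMOX1.

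**Figure D2:**
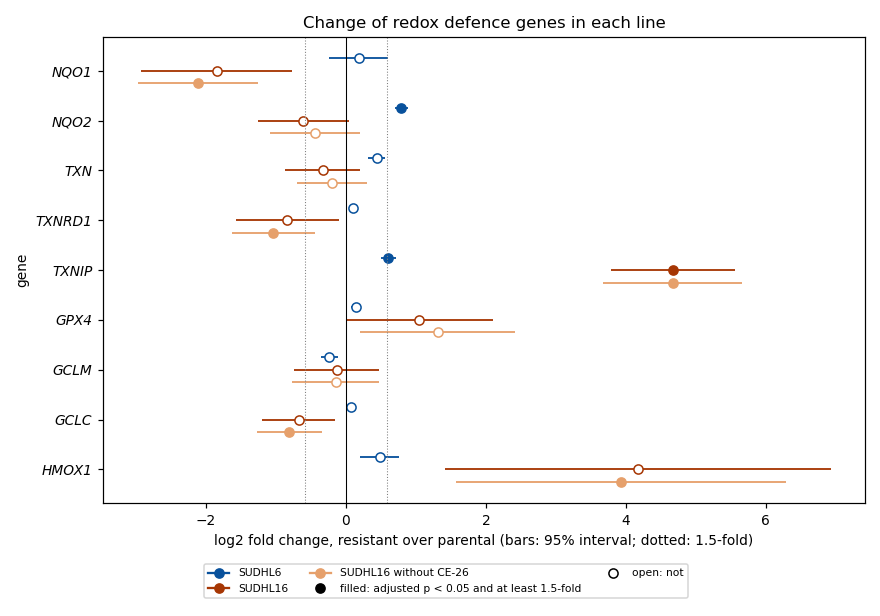
Log2 fold change of resistant over parental cells with its 95% interval, for each gene, in SUDHL6, in SUDHL16 and in SUDHL16 without CE-26, with filled points for called genes. The SUDHL6 intervals are narrow, and TXNIP is the only gene whose filled points lie to the right in all 3 comparisons.

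TXNIP (ENSG00000265972; GRCh38 chr1:145992435-145996579, minus strand, 8 exons) encodes the thioredoxin-interacting protein. Its promoter is shown because it is the gene that moved most by a called change and because it holds an uncommon motif. The window runs from 250 bases before to 50 bases after the RefSeq start, chr1:145996530-145996829 of GRCh38.p14, minus strand. The capitals mark a match to CACGNG repeated in the same orientation after 5 bases, a form of the carbohydrate response element, to which MondoA and MLX bind.
TXNIP: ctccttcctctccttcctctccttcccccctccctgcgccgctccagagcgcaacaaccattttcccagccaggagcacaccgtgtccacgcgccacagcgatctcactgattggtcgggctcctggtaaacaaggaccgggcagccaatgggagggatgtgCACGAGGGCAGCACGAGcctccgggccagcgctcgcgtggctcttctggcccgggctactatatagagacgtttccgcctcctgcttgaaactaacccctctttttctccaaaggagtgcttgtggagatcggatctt
The match began 88 bases before the start. Searched on both strands, this motif was found in 20 of 34943 promoter windows of that length, 0.0572%, and among the 12 windows listed for 8 of the genes only in this one. Other forms of the element were not searched, so the share holds for this arrangement of letters only. A match is a description of the letters, and binding was not measured.

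In SUDHL6, TXNIP stood at 23.6, 23.5 and 24.1 CPM in the parental libraries CE-7, CE-8 and CE-9, and at 36.6, 34.8 and 37.0 CPM in the resistant libraries CE-10, CE-11 and CE-12. The groups did not overlap, and the change on the log2 scale was 0.60 with a standard error (SE) of 0.05 and an adjusted p of 7.53e-07. The 95% interval ran from 1.41-fold to 1.63-fold, so it reached below the 1.5-fold limit of a call.

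In SUDHL16, the parental libraries CE-25, CE-26 and CE-27 held 9.15, 8.95 and 9.497 CPM of TXNIP, the lowest level of the 4 groups, and the resistant libraries CE-28, CE-29 and CE-30 held 170, 172 and 364 CPM, the highest. These were 26 to 166 counts against 2545 to 8550. CE-30 stood well above the other resistant libraries, and all 3 lay far above every parental library. This was a log2 fold change of 4.67 (SE 0.39, 95% interval 3.78 to 5.57, adjusted p 6.28e-04), and it was 4.67 without CE-26 (SE 0.43, adjusted p 4.50e-04). In bulk RNA, more TXNIP per cell and more cells that express it cannot be told apart. The order of the group means was SUDHL16 resistant, SUDHL6 resistant, SUDHL6 parental and SUDHL16 parental, and no neighbours in this order overlapped.

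Relative to exon length, the mean level of TXNIP was among the lower of the set in parental SUDHL16 cells and the highest in resistant ones, the latter through CE-30. Its level per kilobase of exon was 2.55 CPM in parental and 65.3 CPM in resistant SUDHL16 cells, where TXN was at 72.4 and 57.3 CPM per kilobase. By library, TXNIP was below TXN in CE-28 (47.3 against 51.3 CPM per kilobase) and CE-29 (47.8 against 69.6), and above it in CE-30 (100.9 against 51.0). In SUDHL6 the same values were 6.59 and 10.0 CPM per kilobase for TXNIP and 39.3 and 53.2 CPM per kilobase for TXN. These levels are means over 3 libraries and were not tested between genes.

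TXN (ENSG00000136810; chr9:110243810-110256507, minus strand, 5 exons) encodes cytosolic thioredoxin, the disulfide reductase that TXNIP binds. In SUDHL6 it stood at 42.1, 40.9 and 36.0 CPM in parental and 50.3, 54.4 and 56.4 CPM in resistant libraries, with no overlap. The log2 fold change of 0.44 (SE 0.06, adjusted p 6.39e-05) passed the adjusted p but was a 1.36-fold change, under the limit. In SUDHL16 it stood at 65.4, 86.1 and 67.9 CPM in parental and 51.8, 70.3 and 51.5 CPM in resistant libraries. These groups overlapped, and the log2 fold change of -0.33 had a 95% interval from -0.87 to 0.21 (adjusted p 0.508), which does not show that the level was equal.

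TXNRD1 (ENSG00000198431; chr12:104215779-104350307, plus strand, 17 exons) encodes the cytosolic thioredoxin reductase, a selenoprotein that restores reduced thioredoxin with NADPH. It had the highest CPM of the set in every SUDHL6 library, 170, 165 and 171 in parental and 180, 182 and 179 in resistant libraries. The groups did not overlap, yet the change was 1.07-fold (log2 0.10, SE 0.02, adjusted p 0.00493). In SUDHL16 the parental libraries held 284, 147 and 221 CPM and the resistant libraries 126, 149 and 90.4 CPM. The lowest parental value was that of CE-26, and the groups overlapped only through it. The log2 fold change was -0.84 (SE 0.32, adjusted p 0.202) with all libraries and -1.04 (SE 0.26, adjusted p 0.0402) without CE-26, and over the alternatives tried the adjusted p ran from 0.0179 to 0.521.

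NQO2 (ENSG00000124588; chr6:2987987-3019755, plus strand, 7 exons) was the gene of the set with the smallest adjusted p in SUDHL6. Its promoter is shown for comparison with that of TXNIP: the window at chr6:2999644-2999943, plus strand, around a RefSeq start inside the annotated gene, held neither the motif above nor the core of the antioxidant response element, TGACNNNGC, to which NRF2 and small MAF proteins bind, and it is therefore all in lower case.
NQO2: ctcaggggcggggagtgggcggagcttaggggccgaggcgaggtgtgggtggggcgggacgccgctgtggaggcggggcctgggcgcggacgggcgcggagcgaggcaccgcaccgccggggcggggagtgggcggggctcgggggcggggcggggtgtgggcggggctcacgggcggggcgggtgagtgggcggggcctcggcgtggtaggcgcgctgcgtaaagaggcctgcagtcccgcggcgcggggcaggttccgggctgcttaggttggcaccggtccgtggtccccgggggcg
No match says only that these letters are not in this window.

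In SUDHL6, NQO2 stood at 48.8, 53.4 and 47.4 CPM in parental and 87.4, 83.2 and 87.7 CPM in resistant libraries. The groups lay far apart relative to their spread, 49.9 ± 3.13 against 86.1 ± 2.49 CPM (SD, n = 3), a 1.73-fold change (log2 0.79, SE 0.04, adjusted p 1.69e-08). In SUDHL16 the order was the opposite, with 25.4, 42.0 and 36.6 CPM in parental and 23.2, 17.8 and 26.8 CPM in resistant libraries. Those groups overlapped, since CE-25 lay below CE-30, and the log2 fold change of -0.61 did not pass (95% interval -1.26 to 0.04, adjusted p 0.295). LINC01011, a long non-coding RNA on the same strand, shares 12.04% of the exon bases of NQO2 and held 12 to 25 counts in parental and 46 to 48 counts in resistant SUDHL6 libraries, against 1661 to 1928 and 3184 to 3518 counts for NQO2. NQO2-AS1, on the other strand, shares 7.54% and held at most 12 counts.

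NQO1 (ENSG00000181019; chr16:69706996-69726668, minus strand, 6 exons) encodes the quinone reductase that is the usual readout of NRF2. Its promoter window is shown beside that of its relative NQO2: chr16:69726511-69726810, minus strand, with neither motif and hence in lower case. The window reaches only 250 bases before the start, and bases further upstream were not searched.
NQO1: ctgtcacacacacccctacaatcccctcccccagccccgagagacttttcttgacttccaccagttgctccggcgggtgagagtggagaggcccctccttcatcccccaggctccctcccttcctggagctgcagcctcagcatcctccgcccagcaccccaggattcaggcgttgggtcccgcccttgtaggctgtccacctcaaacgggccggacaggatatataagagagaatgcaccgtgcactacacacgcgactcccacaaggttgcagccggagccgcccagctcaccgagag
NQO1 was the least abundant gene of the set in SUDHL6, at 1.44, 1.09 and 1.52 CPM in parental and 1.64, 1.41 and 1.57 CPM in resistant libraries, or 37 to 66 counts. The groups overlapped and the log2 fold change was 0.18 (95% interval -0.24 to 0.61, adjusted p 0.508). In SUDHL16 it stood at 17.7, 7.23 and 14.6 CPM in parental and 5.09, 3.25 and 2.81 CPM in resistant libraries. Every resistant library lay below every parental one, the nearest of them CE-26, which held 21 counts. Its change on the log2 scale was -1.85 (SE 0.47, adjusted p 0.0636) with all libraries and -2.12 (SE 0.38, adjusted p 0.0102) without CE-26, a call only in the latter, and over the alternatives tried the adjusted p ran from 0.00146 to 0.244. An antisense long non-coding RNA, ENSG00000261602, shares 19.4% of the NQO1 exon bases and held at most 6 counts in any library.

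GCLC and GCLM encode the catalytic and the modifier subunit of glutamate-cysteine ligase, the first and rate-limiting step of glutathione synthesis. GCLC (ENSG00000001084; chr6:53497341-53616970, minus strand, 16 exons) stood at 87.4, 91.1 and 88.2 CPM in parental and 90.2, 94.0 and 95.2 CPM in resistant SUDHL6 libraries, which overlapped (log2 fold change 0.07, adjusted p 0.0984). In SUDHL16 it stood at 65.4, 42.4 and 55.1 CPM in parental and 34.6, 34.4 and 33.3 CPM in resistant libraries, with no overlap. Here the log2 fold change was -0.67 (SE 0.23, adjusted p 0.151) and without CE-26 it was -0.81 (SE 0.20, adjusted p 0.0402), with an adjusted p of 0.0177 to 0.479 over the alternatives tried. Overlapping long non-coding RNAs, GCLC-AS1 and ENSG00000231683, held at most 10 counts in any library.

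GCLM (ENSG00000023909; chr1:93885199-93909456, minus strand, 7 exons) was the only gene of the set with a lower level in resistant SUDHL6 cells that passed the adjusted p. It stood at 24.8, 23.3 and 24.3 CPM in parental and 19.98, 20.2 and 21.3 CPM in resistant libraries, with no overlap, and the log2 fold change of -0.24 (SE 0.06, adjusted p 0.00529) was under the 1.5-fold limit. In SUDHL16 it stood at 55.8, 44.4 and 37.1 CPM in parental and 34.0, 52.8 and 38.4 CPM in resistant libraries. The groups overlapped and the log2 fold change was -0.13 (95% interval -0.73 to 0.47, adjusted p 0.846). Its promoter window, chr1:93909381-93909680, minus strand, is shown because it holds the antioxidant response element core, whose bases are in capitals.
GCLM: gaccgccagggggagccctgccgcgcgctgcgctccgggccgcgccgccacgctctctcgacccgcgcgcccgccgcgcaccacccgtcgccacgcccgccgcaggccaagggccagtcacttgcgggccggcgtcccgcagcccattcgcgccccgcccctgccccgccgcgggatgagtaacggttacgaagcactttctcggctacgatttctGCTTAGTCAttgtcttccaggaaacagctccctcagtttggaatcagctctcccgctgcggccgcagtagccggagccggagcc
Of the 12 windows of the set, 3 held this core, that of GCLM and both of TXNRD1, against 13.3% of all 34943 windows.

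GPX4 (ENSG00000167468; chr19:1103982-1106791, plus strand, 7 exons) encodes the selenoenzyme that reduces lipid hydroperoxides with glutathione and so restrains ferroptosis. In SUDHL6 it stood at 77.7, 73.4 and 77.1 CPM in parental and 86.6, 81.3 and 85.0 CPM in resistant libraries. The groups did not overlap and differed by 1.11-fold (log2 0.15, SE 0.03, adjusted p 0.00342). In SUDHL16 it stood at 15.5, 29.3 and 20.9 CPM in parental and 47.8, 18.8 and 67.7 CPM in resistant libraries. Of the resistant libraries 2 lay above all parental ones and CE-29 lay among them, and the log2 fold change of 1.05 (SE 0.46, adjusted p 0.260) did not pass, nor did the value of 1.31 without CE-26 (adjusted p 0.143).

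HMOX1 (ENSG00000100292; chr22:35380361-35394214, plus strand, 5 exons) encodes the inducible haem oxygenase, which the repressor BACH1 keeps low. In SUDHL6 it stood at 4.46, 3.33 and 4.65 CPM in parental and 5.99, 5.79 and 5.62 CPM in resistant libraries, with no overlap. The change of 1.40-fold (log2 0.48, SE 0.13, adjusted p 0.0116) was under the limit of a call. In SUDHL16 it had 0, 0 and 11 counts in the parental libraries and 55, 131 and 130 counts in the resistant ones, or 3.68, 6.16 and 5.53 CPM. A count of 0 allowed up to 3 counts, which is 0.165 CPM in CE-25 and 1.03 CPM in the shallow CE-26, and CE-27 held 0.683 CPM, so every resistant library lay above these values. The log2 fold change of 4.17 (95% interval 1.42 to 6.92) had an adjusted p of 0.0938 with all libraries and 0.0479 without CE-26, and 0.00466 to 0.322 over the alternatives tried. With 2 of 3 parental libraries at 0, its size depends on the prior count. The haemoglobin gene HBA1 moved the other way, 109, 603 and 66.4 CPM in parental and 59.6, 2.49 and 3.96 CPM in resistant libraries, and the part of blood-cell RNA in the HMOX1 values was not tested.

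Over the set, 7 of 9 genes passed the adjusted p in SUDHL6 whatever their size of change, where 37.3% of all genes did, and the 2 groups did not overlap for 7 of 9, where they did not overlap for 47.9% of all genes. In SUDHL16 the groups did not overlap for 4 of 9 genes, where 26.6% of all genes were so, and without CE-26 for 5 of 9, where 42.2% were. The median log2 fold change of the 9 genes was 0.18 in SUDHL6, with 8 of 9 above 0, and -0.33 in SUDHL16, with 3 of 9 above 0. Over all genes tested the medians were -4.3e-05 and -0.02.

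**Figure D3:**
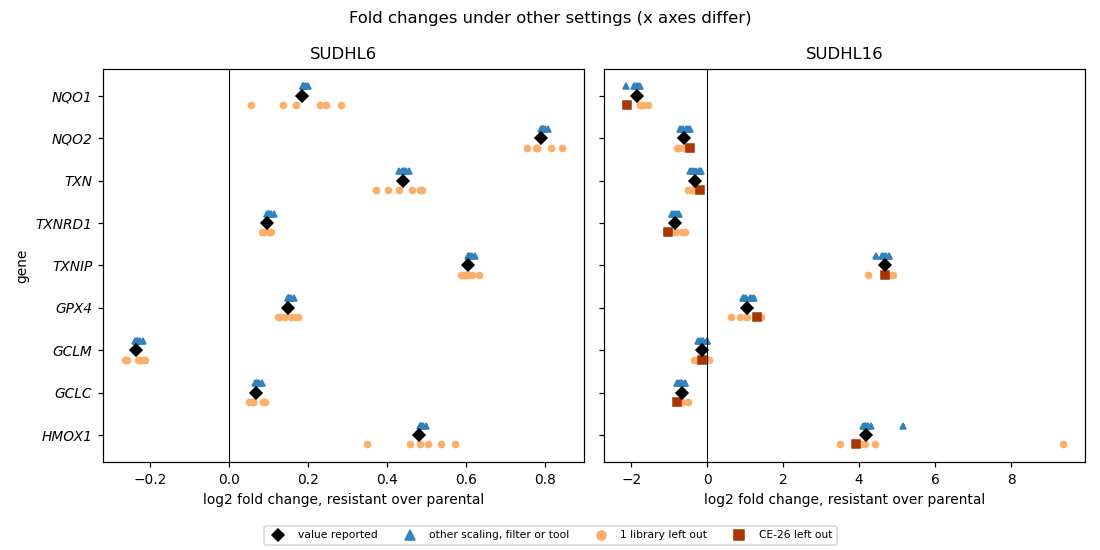
Log2 fold change of each gene as reported (diamonds), under another scaling, filter or tool (triangles) and with 1 library left out (circles, CE-26 as a square), in SUDHL6 and SUDHL16, whose x axes differ. The SUDHL6 values stay close together, and the HMOX1 value of 9.37 in SUDHL16 leaves out CE-27, without which the parental libraries are all at 0.

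The change itself was compared between the lines as an interaction in 1 fit of all 12 libraries, in which 7.16% of 19621 genes had an adjusted p under 0.05. Of the 9 genes, 3 did. The change of TXNIP was larger in SUDHL16 by 4.10 on the log2 scale (SE 0.39, adjusted p 6.98e-05). That of NQO2 was lower in SUDHL16 by a log2 difference of -1.34 (SE 0.26, adjusted p 0.00764), and that of NQO1 by -2.04 (SE 0.55, adjusted p 0.0472). The NQO1 difference missed the threshold in 12 of 18 alternatives, among them library totals (adjusted p 0.0803), no filter (adjusted p 0.173) and 10 of the left-out libraries, with values of -2.36 to -1.71 throughout. Without CE-26, 7 of the 9 genes passed, all but GPX4 and GCLM, where 2805 of all 20959 genes tested passed. The fit gives both lines a common estimate of spread, with a biological coefficient of variation of 0.369.

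The genes around NRF2 were examined in turn from lists written for this purpose. NFE2L2 itself was at 54.3 to 65.0 CPM in SUDHL6, with a log2 fold change of -0.20 (adjusted p 2.43e-04, under the 1.5-fold limit), and at -0.21 in SUDHL16 (adjusted p 0.734). KEAP1, its inhibitor, had log2 fold changes of 0.07 (adjusted p 0.156) and -0.07 (adjusted p 0.912), and BACH1 had -0.22 (adjusted p 0.00133) and 0.79 (adjusted p 0.269). Of the 12 regulators tested in each line, 2 were called in SUDHL6, both lower: BACH2, a B-cell repressor related to BACH1 (log2 -0.68, adjusted p 4.21e-09), and MAFF, a small MAF partner (-0.97, adjusted p 2.77e-04). In either direction and at any size of change, 10 of 12 passed the adjusted p in SUDHL6, where 37.3% of all genes did. The median log2 fold change of the 12 was -0.19 there. In SUDHL16 1 was called, NFE2L1, an NRF2 relative that controls proteasome genes (1.36, adjusted p 0.0355).

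Other known NRF2 targets moved in both directions. In SUDHL6, 4 of 19 tested were called, 2 in each direction. SLC7A11, the cystine importer (log2 0.62, adjusted p 8.09e-07), and BLVRB, biliverdin reductase B (0.59, adjusted p 5.96e-06), were higher, and ABCC4, an efflux transporter (-0.80, adjusted p 3.92e-10), was among the lower. SLC7A11 rose from 19.8 to 20.1 CPM in the parental to 30.4 to 31.0 CPM in the resistant libraries. In SUDHL16, 2 of 20 were called, the aldose reductase AKR1B1 higher (1.52, adjusted p 0.0143) and PIR, pirin, lower (-3.33, adjusted p 0.00409), from 13.0 to 15.5 CPM in parental to 1.07 to 1.84 CPM in resistant libraries.

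Of the further thioredoxin and peroxiredoxin genes, 3 of 22 were called in SUDHL6 and 2 of 22 in SUDHL16, none of them in both. In SUDHL6, SESN3, a sestrin (log2 1.13, adjusted p 5.44e-04, at 1.06 to 3.21 CPM), and GLRX, a glutaredoxin (0.63, adjusted p 1.90e-05), were higher, and TXNDC5, a disulfide isomerase of the endoplasmic reticulum, was lower (-0.59, adjusted p 1.34e-08). In SUDHL16, SESN2, a sestrin induced by stress, rose from 18.2 to 33.1 CPM to 78.6 to 103 CPM (1.90, adjusted p 0.00670). PRDX2, a peroxiredoxin, was called higher (adjusted p 0.0275) with 2, 5 and 0 counts in parental and 359, 319 and 325 counts in resistant libraries, while in SUDHL6 it held over 4000 counts in every library.

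Glutathione metabolism had the highest share of calls in each line, 6 of 25 tested in SUDHL6, 4 higher and 2 lower, and 4 of 23 in SUDHL16, 3 higher and 1 lower. In SUDHL6 the genes were SLC7A11, GGT1, a glutamyltransferase (log2 0.90, adjusted p 0.0288), and GSTM1 (1.12, adjusted p 0.00535) and GSTM2 (0.89, adjusted p 0.0322), glutathione transferases whose reads may be shared with close copies, all higher, and the peroxidases GPX7 (-0.88, adjusted p 2.00e-06) and GPX3 (-0.95, adjusted p 0.0314, at most 28 counts), lower. In SUDHL16, CHAC1, which degrades glutathione, rose from 0.807 to 5.17 CPM to 26.5 to 37.0 CPM (3.61, adjusted p 0.0119), and SLC3A2, the partner chain of SLC7A11, rose from 75.8 to 85.3 CPM to 142 to 162 CPM (0.94, adjusted p 0.0420). MGST2, a microsomal transferase, fell (-3.59, adjusted p 0.00471). GPX7 was called higher there (adjusted p 0.0275), with 0, 4 and 0 counts in parental and 224, 282 and 567 in resistant libraries, opposite to its direction in SUDHL6.

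Few genes of the remaining lists were called. Among enzymes of superoxide, peroxide and haem, BLVRB was the only one of 9 in SUDHL6, and in SUDHL16 PON2, a paraoxonase, was the only one of 10 (log2 -1.45, adjusted p 0.0457). Of the ferroptosis and iron list, LPCAT3, which puts polyunsaturated chains into phospholipids, was the only one of 17 in SUDHL6 (-0.62, adjusted p 4.94e-06) and none of 16 was called in SUDHL16. Of the selenoprotein list, SEPHS2, which makes the selenium donor, was the only one of 15 in SUDHL6 (0.62, adjusted p 1.57e-08), and none of 16 was called in SUDHL16. All lists together held 16 calls of 125 tested in SUDHL6, 8 in each direction and 12.8%, and 11 of 125 in SUDHL16, 8 higher and 3 lower and 8.8%, to be read beside the shares of all genes above. Their median log2 fold changes were -0.03 and 0.07. Without CE-26, 20 of 125 were called in SUDHL16, 11 higher and 9 lower. Leaving out each of the other 5 libraries called 4 to 6, and 279 to 460 of all genes. The calls without CE-26 included 2 of 12 regulators, 1 of 16 ferroptosis and iron genes and 2 of 16 selenoprotein genes. SEPHS2 was then called lower (-0.91, adjusted p 0.0499), opposite to its direction in SUDHL6.

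**Figure D4:**
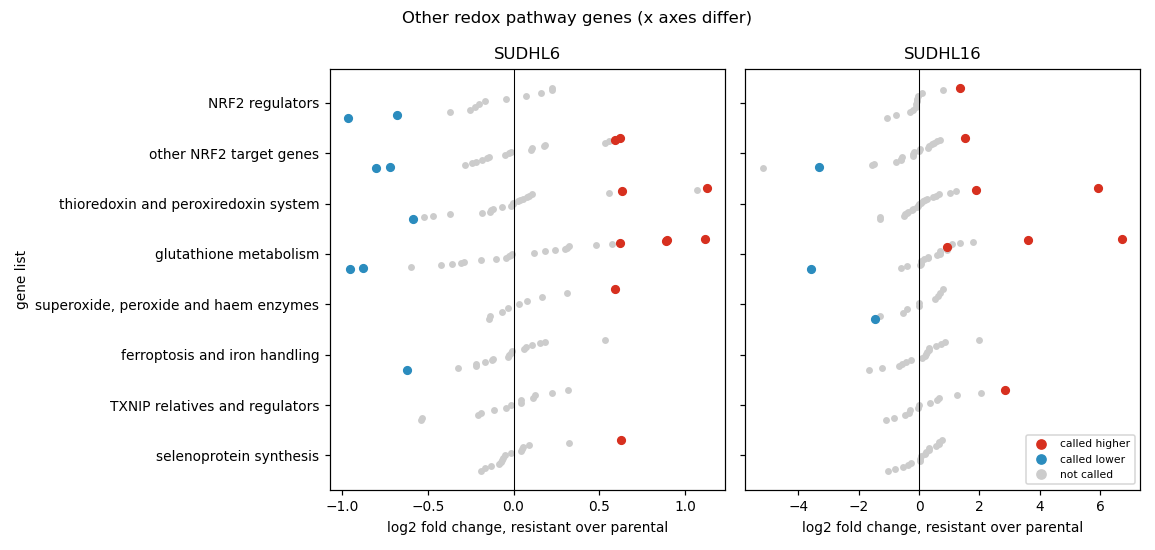
Log2 fold change of each tested gene of 8 lists of redox pathway genes, resistant over parental, in SUDHL6 and SUDHL16, with called genes in colour and x axes that differ. Called genes lie on both sides of 0 in several lists, and MLXIP is the only call among TXNIP relatives and regulators.

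The list closest to TXNIP held its relatives in the arrestin family, its regulators and glucose transporters. None of 13 tested was called in SUDHL6, where 8 of 13 passed the adjusted p with changes under 1.5-fold. Of all genes tested in SUDHL6, 37.3% passed the adjusted p at any size of change. In SUDHL16 the only call of 13 was MLXIP, which encodes MondoA, at 11.5, 12.7 and 11.2 CPM in parental and 89.1, 91.8 and 75.5 CPM in resistant libraries (log2 2.86, SE 0.22, adjusted p 5.51e-04). Its groups lay far apart, and without CE-26 the value was 2.92 (adjusted p 2.24e-04). In SUDHL6 MLXIP stood at 73.8 to 75.3 CPM in parental and 80.0 to 83.9 CPM in resistant libraries (0.13, adjusted p 0.00311). MLX, the partner of MondoA, had log2 fold changes of 0.05 (adjusted p 0.444) and -0.31 (adjusted p 0.541). ARRDC4, the relative of TXNIP that is also known to follow MondoA, had at most 4 counts in any library and was not tested. Without CE-26, ARRDC1, an arrestin-domain relative of TXNIP, was also called in SUDHL16, lower (-1.03, adjusted p 0.0419).

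The protein-coding genes within 1 Mb of each member were described to show whether whole regions moved. In SUDHL6, 17 of 19 tested neighbours of TXNIP were higher in the resistant line, and their median change was 0.20 (log2), where 8330 of all 16662 genes were higher. LIX1L, ANKRD34A and ITGA10, whose starts lie at most 86.5 kb from that of TXNIP, were called higher with log2 fold changes of 0.69, 0.59 and 0.78, beside 0.60 for TXNIP. In SUDHL16, 10 of 17 neighbours were higher, with a median of 0.11 and none called, and the highest was 0.83. For NQO2 in SUDHL6, 10 of 12 neighbours were higher, with a median of 0.39, and SERPINB9 and MYLK4 were called with log2 fold changes of 0.67 and 0.62. In SUDHL16, 4 of 10 neighbours of NQO2 were higher, with a median of -0.40, and SERPINB9 and SERPINB1 were called higher (3.18 and 1.69) and SLC22A23 lower. The neighbours of the other members had medians of -0.52 to 0.10 in SUDHL6 and of -0.21 to 0.07 in SUDHL16, and TXN had no tested neighbour in either. The lowest SUDHL6 median was that around HMOX1, which itself was at 0.48. Of the 8 HMOX1 neighbours tested there, 6 were lower, and 4 were called lower and 1 higher. The neighbours were named after their values were seen, and copy number was not measured in these data.

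**Figure D5:**
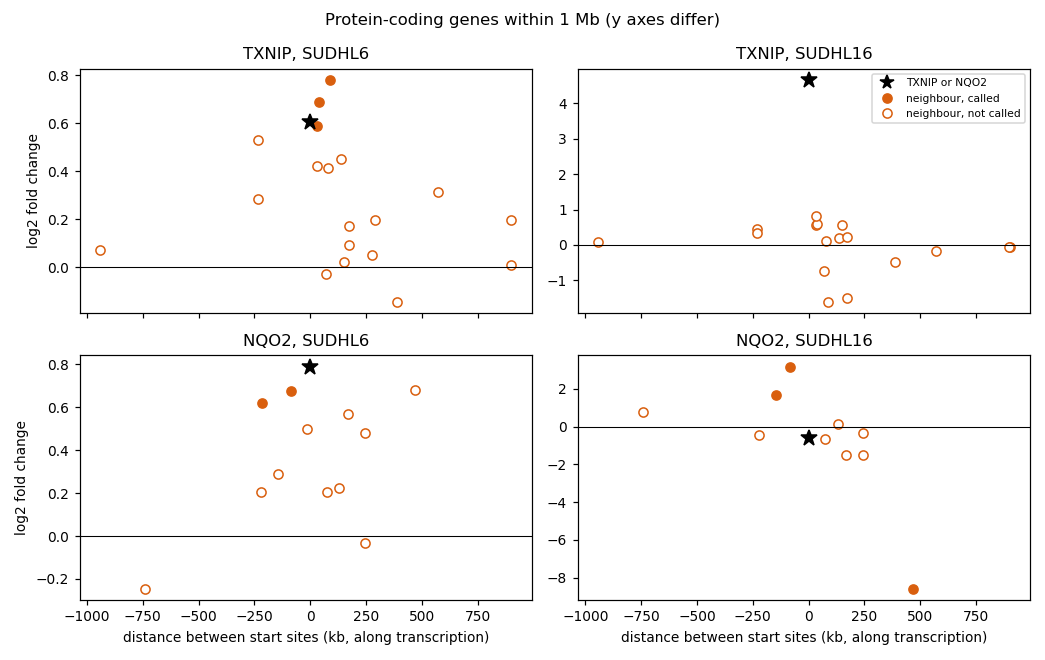
Log2 fold change of protein-coding genes within 1 Mb of TXNIP or NQO2 (star), against the distance between start sites in kb, in SUDHL6 and SUDHL16, with called neighbours filled and y axes that differ. Most SUDHL6 points lie above 0 near both genes, and in SUDHL16 TXNIP stands alone above its neighbours.

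Across the 12 libraries, after the mean of each line was subtracted, the log2 CPM of each gene was compared with that of TXNIP and of NQO2 by Pearson's r. The 8853 genes compared were protein-coding and averaged 5 CPM or more in both lines. Among the 5 genes most like TXNIP were CLIP1 (r 0.991), TAP1, a peptide transporter of antigen presentation (0.990), HLA-DQA2 (0.989), whose reads may be shared with close copies, and PRKCB, a protein kinase C (0.989). Without CE-26 these values were 0.986 to 0.994. All 4 had positive log2 fold changes in both lines, with 2.12 for TAP1 and 4.48 for PRKCB in SUDHL16. That of HLA-DQA2 in SUDHL6 was 0.11 and did not pass (adjusted p 0.129). NQO2 was most like MMP14 (r 0.934), TGFBR2 (0.918), FTL, the ferritin light chain (0.899), IDUA (0.891) and TARS2 (0.890), each with a positive log2 fold change in SUDHL6 (0.53 to 1.03) and a negative one in SUDHL16 (-0.62 to -0.25). None of those SUDHL16 changes passed (adjusted p 0.431 to 0.830). FTL has processed copies with which its reads may be shared. The points share their lines, libraries and the contrast of resistant and parental cells, so these values describe likeness only.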

How the data were processed

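The authors trimmed reads with TrimGalore, aligned them to GRCh38 with HISAT2 and assembled transcripts with StringTie. The deposited values are counts of reads per Ensembl gene, in whole numbers and not normalized. The tool and annotation of the counting and its use of strand are not given in the sources used here, so overlapping genes and close copies may share reads. Of 60675 identifiers, 56558 were matched to GENCODE 44 on GRCh38, which gave symbols, exons and positions, and promoter windows came from RefSeq (GRCh38.p14), with none for HMOX1.

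Total counts per library ranged from 4131927 to 40885665. No libraries of a group had identical counts, and the labels carry no replicate numbers. Where a library had 0 counts, 3 counts were taken as the upper limit, which covers counting error only. Each line was fitted alone with edgeR 4.0.16 in R 4.3.3: filterByExpr removed low genes, TMM set the scaling, and the quasi-likelihood test (two-sided) was adjusted by Benjamini-Hochberg over all genes tested. CPM are on the TMM scale of each line, and log2 CPM had a prior count of 2. Calls needed an adjusted p under 0.05 and at least 1.5-fold, as in the study. Intervals are at 95%. The alternatives were DESeq2 1.42.0, upper-quartile scaling, library totals, no filter, protein-coding genes only, 1 fit of all 12 libraries, limma 3.58.1 voom with quality weights, and each library left out. The procedure was tested on simulated data.

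The members and lists were chosen with earlier results of these data known. The text names every member, of each other list up to 5 called genes per line (GSTM2 was the next after these) with the smallest adjusted p, NFE2L2, KEAP1 and BACH1, and the 5 genes most like TXNIP and NQO2. Genes named for another reason are the MondoA partner MLX, ARRDC1, ARRDC4, HBA1 and the neighbours, chosen after their values were seen. The lists were written from general knowledge, and some named genes are not reported here.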

Additional observations from a re-analysis of the deposited data

Results flagged for a closer look

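The results below were singled out because the change from parental to resistant cells differed between the lines by the interaction test in edgeR, with an adjusted p under 0.05. Values are the log2 fold change in SUDHL16 minus that in SUDHL6. They were found for 3 of 9 members of the set, TXNIP (4.10, adjusted p 6.98e-05), NQO2 (-1.34, adjusted p 0.00764) and NQO1 (-2.04, adjusted p 0.0472), and NQO1 lost the call with any library left out except CE-26 and CE-28.

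Of the 25 named genes of the other lists, 12 differed in the same way, where 7.16% of all 19621 genes did. These 25 were named for a call in a line, in the same libraries. That choice favours a difference between the lines, so their share cannot be set against that of all genes. The change was higher in SUDHL16 for MLXIP (2.77, adjusted p 3.83e-06), SESN2 (1.90, adjusted p 8.17e-04), CHAC1 (4.09, adjusted p 9.13e-04), AKR1B1 (1.77, adjusted p 0.00339), NFE2L1 (1.43, adjusted p 0.0154), LPCAT3 (1.24, adjusted p 0.00537) and SLC3A2 (1.01, adjusted p 0.00744). It was also higher for PRDX2 (6.27, adjusted p 4.48e-04) and GPX7 (7.96, adjusted p 6.99e-04), whose size depends on the prior count, since SUDHL16 parental libraries held at most 5 counts of each. It was lower in SUDHL16 for PIR (-3.39, adjusted p 1.23e-04), SEPHS2 (-1.42, adjusted p 0.00685) and SESN3 (-1.46, adjusted p 0.0499). SESN3 was at 1.06 to 1.82 CPM in SUDHL6 parental and 145 to 244 CPM in SUDHL16 parental libraries. Kit and platform changed with the line and cannot be told apart from it.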

How the results depend on the processing

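In SUDHL6, NQO2 and TXNIP were called under every alternative except the single fit of all 12 libraries. That fit shares the wider spread of SUDHL16 and called 0 of 9 members and 0 of the other pathway genes by edgeR. The log2 fold changes stayed at 0.79 and 0.60. Over all genes, that fit called 140 of 19621 in SUDHL6, against 1493 of 16662 in the fit of SUDHL6 alone. Leaving out 1 library called 2 of 9 members each time and 10 to 17 pathway genes, against 16, with the lowest count without CE-10. Over all genes it called 1369 to 1462. In SUDHL16, TXNIP was called under every alternative. The number of members called, 1, became 3 with DESeq2, 2 with protein-coding genes only, 4 in the single fit, 5 with limma voom and 1 to 5 with a library left out. The pathway genes, 11, became 25 with DESeq2, 34 in the single fit, 33 with limma voom and 4 to 20 with a library left out. Over all genes tested, calls in SUDHL16, 833 of 15708, became 1775 of 15708 with DESeq2 and 926 of 11567 with protein-coding genes only. They became 2855 of 19621 in the single fit, 2648 of 15708 with limma voom and 279 to 1636 with a library left out. The members whose change differed between the lines, 3, became 7 with DESeq2, 5 with upper-quartile scaling, 1 without a filter, 5 with protein-coding genes only, 6 with limma voom and 2 to 7 with a library left out, and TXNIP was among them each time. Over all 19621 genes, 1404 differed, which became 2821 with DESeq2, 1568 with upper-quartile scaling and 2720 with limma voom. The number was 841 of 46002 without a filter, 1638 of 13076 with protein-coding genes only and 830 to 2805 with a library left out. The cause of these differences was not tested. GCLM reversed in SUDHL16 without CE-25 (0.054) and without CE-28 (0.014), with a range of -0.34 to 0.054 over left-out libraries. Its difference between the lines reversed with upper-quartile scaling (-0.017) and without CE-29 (-0.046), with a range of -0.046 to 0.40, and none of these values passed. The single-gene log2 fold changes were otherwise of 1 direction. Library totals moved the median of all genes in SUDHL16 from -0.02 to 0.11, and DESeq2 moved the share of higher changes among all calls of the interaction from 60.7% to 48.8%. Low depth limits NQO1 and HMOX1, mainly in CE-26. No paired analysis was possible because the labels give no replicate numbers.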
